A study of Mus musculus with 4 samples.

Results

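The RNAs of 10 annexins and S100 proteins, both calcium-regulated families, were followed in the pseudopodia and the cell bodies of migrating fibroblasts. The members are the annexins Anxa1, Anxa2, Anxa3, Anxa5, Anxa6 and Anxa7 and the S100 genes S100a4, S100a6, S100a10 and S100a11, 10 in all, on an array that measures 18193 genes through probe sets annotated with exactly 1 gene symbol. They were taken by name, through every such probe set that carries their symbol, which gave 19 probe sets for 9 of the 10 genes. The only probe set that lists S100a11 also lists a pseudogene of it and a predicted gene, so S100a11 was not analysed here.

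Annexins are soluble proteins that bind acidic phospholipids of the inner plasma membrane when calcium rises, and they take part in membrane repair, membrane-cytoskeleton contacts and vesicle fusion. S100 proteins are small proteins with EF hands, most of them dimers, that expose a binding surface when they bind calcium. Several S100 proteins bind the N-terminal tail of an annexin. The best known such complex joins annexin A2 to S100A10, which holds it at the membrane without needing calcium and binds plasminogen activators and plasminogen at the cell surface.

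All 4 samples came from NIH/3T3, an established mouse embryo fibroblast line for which the labels name no transgene or mutation. Cells starved of serum overnight spread for 2 h on a porous membrane coated with fibronectin, and lysophosphatidic acid (LPA), a phospholipid of serum that stimulates migration, was then placed below it at 150 ng/ml for 1 h. Pseudopodia LPA (2 arrays) are the protrusions that had grown through the pores, collected from the underside, and Cell body LPA (2 arrays) is the material on the upper side, both after 10 min in 0.3% formaldehyde. The other side of the membrane was wiped off by hand each time. Fixation was reversed for 45 min at 70 °C in all 4 samples. Both fractions were stimulated, and unstimulated cells were not analysed here. The 2 samples of each fraction are described as independent without saying how, so the p-values rest on a spread between samples that may be technical.

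Each array gave a MAS5 signal, an Affymetrix intensity per probe set, for 45101 probe sets. As deposited, every array had a 2% trimmed mean of 250.0, and the small number of arrays limited the precision. The ratio of 3' to 5' signal of the beta-actin controls, a sign of RNA integrity, was 1.77 and 3.41 on the pseudopodia arrays, against 1.55 and 1.89 on the cell body arrays. For Gapdh it was 0.960 and 1.01 against 0.919 and 0.946. The part of RNA integrity in the results was not tested. Of 10 fibroblast markers 7 were bright enough to be tested, while the signals of Thy1, Fap and Postn were at most 56.3. Summed signals of the fibroblast list were 92580 and 97040 in pseudopodia and 102100 and 105500 in cell bodies. Those of 6 blood markers were 290.6 and 306.9 against 381.2 and 370.2, of 4 endothelial markers 84.6 and 129.8 against 39.3 and 62.6, and of 6 muscle and fat markers 155.8 and 165.3 against 128.0 and 82.6. The 6 epithelial markers summed to 2412 and 2823 in pseudopodia and 2953 and 2598 in cell bodies. Most of it was Krt14, at 1813.1 and 1866.8 against 2198.7 and 1769.6. Krt8 had 354.5 and 442.4 against 372.9 and 365.1, and Epcam 154.9 and 333.5 against 277.4 and 318.7. Krt18, Krt5 and Cdh1 had signals of at most 98.4. What these markers contribute to the results was not tested.

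Below, differences are log2(signal + 32), pseudopodia minus cell body, ± SE of a limma fit with n = 2 arrays in each fraction. Adjusted p-values are Benjamini-Hochberg values of that fit over all 22519 probe sets kept, those at or above the median level, and the threshold is 0.05. Each array was scaled to a common 2% trimmed mean, so a difference is relative to the other RNAs of the fraction. Fewer cells in a sample and less RNA per cell cannot be told apart.

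No annexin or S100 gene passed the threshold by its brightest probe set, and the values of most lay close to 0. Of the 17 member probe sets that were kept, 12 for annexins and 5 for S100 genes, none was higher in pseudopodia and 1 was lower, a dim probe set of S100a10. Among all kept probe sets 4.40% passed, 1.08% as higher and 3.32% as lower, so 1 of 17, or 5.88%, is near the background. At an unadjusted p under 0.05 there were 4 of 17, where 22.0% of all kept probe sets stood below it. With the replicate number, which marks a shared scan day, as a block, 4 of 17 passed, 1 as higher and 3 as lower, where 18.1% of all kept probe sets did. Pseudopodia and cell body arrays were fully apart in 10 of the 17, or 58.8%, beside 53.0% of all kept probe sets. In 5 of them pseudopodia were higher (24.8% of all) and in 5 lower (28.2% of all). By the brightest probe set of each gene, 7 of 9 members had positive values (5 with the mean of a gene's kept probe sets, 2 after quantile normalization and 1 on hybridization controls), and the 9 ranged between -0.40 and 0.59. None of the 9 passed, and 1 had an unadjusted limma p under 0.05, beside 21.0% of all genes. Of all genes 3.81% passed, 1.30% as higher and 2.52% as lower. The arrays were fully apart in 5 of the 9, 4 higher and 1 lower, beside 52.6% of all genes, 27.4% higher and 25.2% lower. The median of the 9 was 0.14, against 0.01 for all 10962 genes, and 0.18 and 0.11 in the replicate 1 and replicate 2 pairs. Relative to the median of all genes the members' median was 0.13, and this direction depended on the scaling. After quantile normalization the members' median was -0.12 and that of all genes 0.07, so the members stood at -0.19 relative to it. Scaling on hybridization controls moved all genes down, to a median of -0.29, and the members' median of -0.19 stood 0.096 above it.

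**Figure D1:**
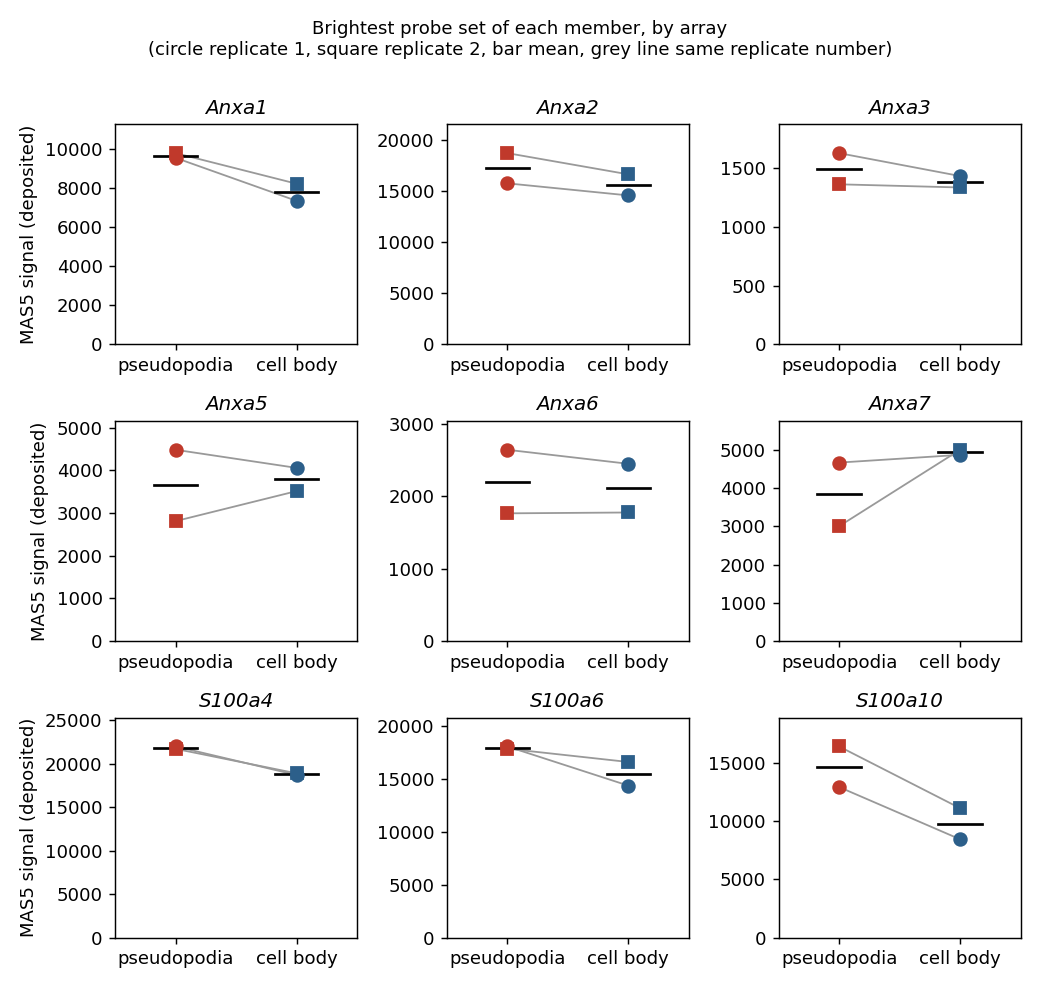
Deposited MAS5 signal (vertical axis, linear from 0) of the brightest probe set of 9 members on each array, pseudopodia left and cell bodies right, with circles for replicate 1, squares for replicate 2, bars for means and grey lines joining arrays with the same replicate number. The pseudopodia arrays lie above both cell body arrays for Anxa1, S100a4, S100a6 and S100a10, below them for Anxa7, and overlap them for the other 4 genes.

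Anxa1 encodes a phospholipid-binding protein that is a substrate of the EGF receptor and, when released, acts on formyl peptide receptors. Its probe set 1448213_at had signals of 9521.1 and 9764.7 in pseudopodia, against 7326.0 and 8201.0 in cell bodies. Both pseudopodia arrays were above both cell body arrays. The difference was 0.31 ± 0.14 with a 95% interval of -0.02 to 0.65, and it did not pass (adjusted p = 0.256). After quantile normalization it was -0.0014. A second probe set of Anxa1, 1444016_at, had signals between 1.4 and 10.7 on the 4 arrays and was not kept.

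Anxa2 encodes the annexin that binds S100A10 and actin and gathers at phosphoinositide-rich membrane. Probe set 1419091_a_at had signals of 15737.3 and 18689.3 in pseudopodia, against 14556.5 and 16616.3 in cell bodies. The fractions overlapped, since the second cell body array exceeded the first pseudopodia array. The difference was 0.14 ± 0.15 (adjusted p = 0.633), and its 95% interval of -0.21 to 0.49 corresponds to between 0.867 and 1.40 times the cell body level. A dimmer probe set of Anxa2, 1437692_x_at, differed by 0.29 ± 0.29 (adjusted p = 0.608), with 0.82 in the replicate 1 pair and -0.24 in the replicate 2 pair. Probe sets whose names end in _x_at hold some probes that can match other RNAs. The third probe set of Anxa2 had signals of at most 22.6 and was not kept.

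Anxa3 and Anxa5 overlapped between the fractions. Anxa3, an annexin with a short N-terminal tail, had signals of 1628.5 and 1363.0 in pseudopodia, against 1433.5 and 1336.0 in cell bodies, a difference of 0.11 ± 0.19 (adjusted p = 0.798). Anxa5, whose protein binds phosphatidylserine and is the probe used to stain dying cells, had 4481.9 and 2810.7 in pseudopodia, against 4057.5 and 3514.1 in cell bodies. The highest and the lowest value of Anxa5 were both pseudopodia arrays. The difference was -0.09 ± 0.24 (adjusted p = 0.871), with 0.14 in replicate 1 and -0.32 in replicate 2, and it turned to 0.25 without pseudopodia replicate 2.

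Annexin A6 has a duplicated core of annexin repeats and links membranes to actin and binds a Ras GTPase-activating protein. The brightest of its 4 probe sets, 1415818_at, gave 2643.6 and 1765.0 in pseudopodia, against 2450.0 and 1776.8 in cell bodies, with a difference of 0.05 ± 0.26 (adjusted p = 0.935). On this probe set the replicates differed more than the fractions did. The other 3 probe sets of Anxa6 had negative values, at -0.44 ± 0.33, -1.19 ± 0.35 and -0.49 ± 0.34, with adjusted p of 0.485, 0.0970 and 0.457. The first of them, 1429246_a_at, passed as lower in 1 of the 14 settings run, without pseudopodia replicate 1 (-0.83). The second, 1442288_at, had signals of 46.3 and 74.8 in pseudopodia and 205.7 and 117.3 in cell bodies, which did not overlap. With the block this probe set passed as lower in pseudopodia (adjusted p = 0.0149), in a fit that leaves 1 residual degree of freedom. It also passed on hybridization controls (adjusted p = 0.0478) and without pseudopodia replicate 2 (-1.46). That is 3 of the 14 settings run. Over all 22519 kept probe sets, the block passed 18.1% and hybridization controls 1564, of which 1510 were lower. Leaving out either pseudopodia array also made calls more frequent among all kept probe sets.

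Anxa7 encodes synexin, a calcium-activated membrane fusion protein that binds sorcin. Its brightest probe set, 1416138_at, had signals of 4673.0 and 3006.4 in pseudopodia, against 4875.5 and 5008.1 in cell bodies. Both pseudopodia arrays were below both cell body arrays, and the replicate 2 array of pseudopodia was the lowest. The difference was -0.40 ± 0.22 (adjusted p = 0.347), with -0.06 in replicate 1 and -0.73 in replicate 2. It passed in 1 of the 14 settings run, without pseudopodia replicate 1 (-0.71). A second probe set, 1416137_at, differed by 0.20 ± 0.21 (adjusted p = 0.633), with the pseudopodia arrays above the cell body arrays. The dimmest, 1438764_at, had signals of 81.9 and 136.2 in pseudopodia and 207.0 and 256.3 in cell bodies. That is -1.01 ± 0.29 (adjusted p = 0.0963), with -1.19 and -0.84 in the replicate pairs. It passed in 3 of the 14 settings run. These were the scan-day block (adjusted p = 0.00929), hybridization controls (adjusted p = 0.0367) and leaving out pseudopodia replicate 2 (-1.33). The block passed 18.1% of all kept probe sets, and hybridization controls 1564, of which 1510 were lower. Calls among all kept probe sets were also more frequent when either pseudopodia array was left out.

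**Figure D2:**
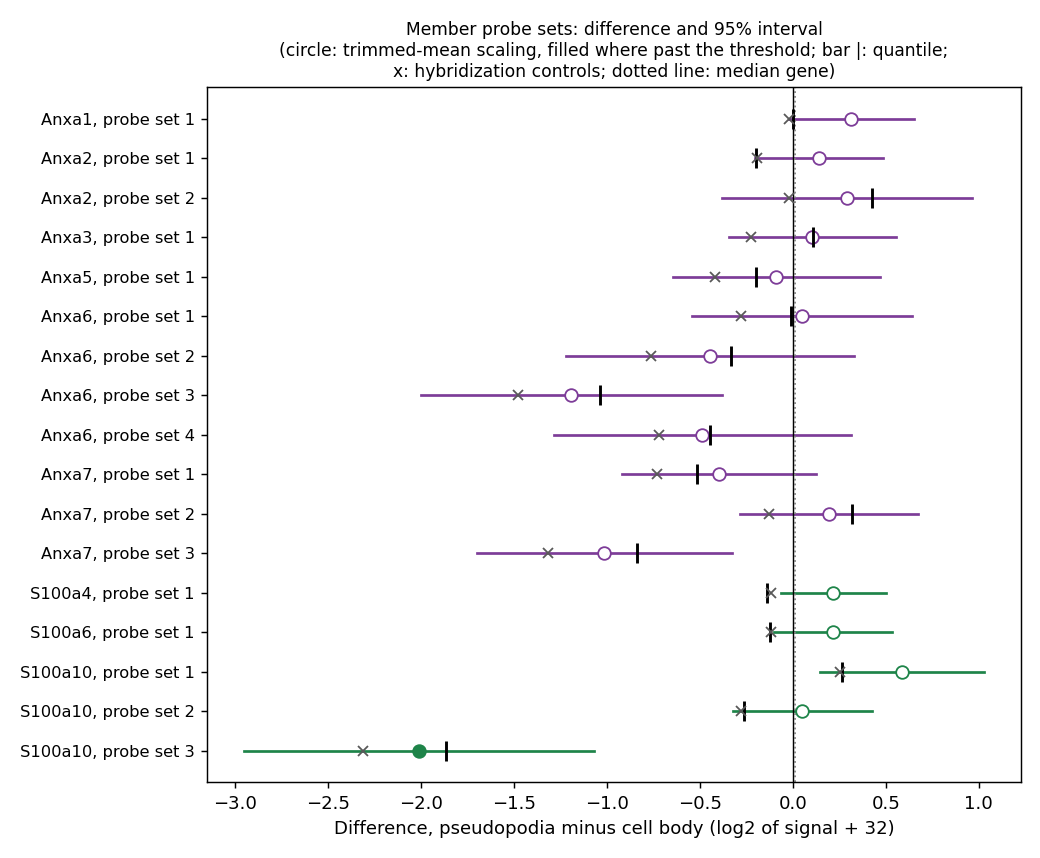
Difference of each of the 17 kept member probe sets (horizontal axis, log2 of signal + 32, pseudopodia minus cell body) with its 95% interval, annexins above S100 genes and probe sets of a gene numbered from the brightest, with the values after quantile normalization (bars) and on hybridization controls (crosses). Only probe set 3 of S100a10, at -2.01, is past the threshold, and the values of S100a4 and S100a6 are below 0 under both other scalings, where on hybridization controls the median of all genes is -0.29.

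S100a4 and S100a6 encode dimeric S100 proteins. S100A4 binds the heavy chain of non-muscle myosin IIA and promotes motility, and S100A6, also called calcyclin, binds several annexins and calcyclin-binding protein. Probe set 1424542_at of S100a4 had signals of 21987.7 and 21709.8 in pseudopodia, against 18699.5 and 18893.5 in cell bodies. The arrays of a fraction lay close together and the fractions did not overlap. The difference was 0.22 ± 0.12 (95% interval -0.07 to 0.50, adjusted p = 0.342). Probe set 1421375_a_at of S100a6 had 18024.8 and 17812.5 in pseudopodia, against 14330.7 and 16560.0 in cell bodies. Its difference was also 0.22, with an SE of 0.14 (adjusted p = 0.395), and again the fractions did not overlap. After quantile normalization S100a4 stood at -0.14 and S100a6 at -0.12, and on hybridization controls both stood at -0.12, above the -0.29 of all genes. In the RefSeq gene table of assembly GRCm38.p6 these genes lie on 1 chromosome with S100a5 as the only protein-coding gene between them, and S100a10 and S100a11 are direct neighbours elsewhere on it. The 6 annexin members lie on 6 different chromosomes.

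S100a10 had 3 probe sets, and their values differed widely. The protein, p11, is the one S100 protein that is locked in its active shape without calcium, and it is stabilised by annexin A2. The brightest probe set, 1456642_x_at, had signals of 12900.6 and 16377.2 in pseudopodia, against 8427.8 and 11091.1 in cell bodies. As an _x_at probe set, it holds some probes that can match other RNAs. Both pseudopodia arrays were above both cell body arrays, and the level was 1.50 times as high, with a 95% interval of 1.11 to 2.04. This difference of 0.59 ± 0.19 was the largest positive one among the 17 and did not pass (adjusted p = 0.123). It was 0.61 and 0.56 in the replicate pairs and passed in 2 of the 14 settings run. These were the scan-day block (adjusted p = 0.00218) and leaving out pseudopodia replicate 1 (0.76). The block passed 18.1% of all kept probe sets, and leaving out that array also made calls more frequent among them. The difference was 0.26 after quantile normalization and 0.25 on hybridization controls.

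The second probe set of S100a10, 1416762_at, was on a similar level. Its signals were 12212.7 and 9677.5 in pseudopodia, against 10172.7 and 10810.0 in cell bodies, and pseudopodia held both the highest and the lowest value. The difference was 0.05 ± 0.16 (95% interval -0.32 to 0.43, adjusted p = 0.888). The third probe set, 1439348_at, had signals of 41.0 and 122.4 in pseudopodia and 359.5 and 324.1 in cell bodies. Both pseudopodia arrays were far below both cell body arrays, though they differed between themselves. This was the only member probe set past the threshold, at -2.01 ± 0.40 (adjusted p = 0.0419), with -2.72 and -1.30 in the replicate pairs. On the scale of signal + 32 it was also the only one of 17 with a gap of 1.5-fold or more in every one of the 4 pairings of arrays, a size that 10.6% of all kept probe sets reached, 2.79% as higher and 7.86% as lower. Its call ended without the variance trend (adjusted p = 0.106), after quantile normalization (0.0609), without the filter on dim probe sets (0.0957) and without cell body replicate 1 (0.288) or 2 (0.238). Its value stayed between -2.65 and -1.37 in all settings run.

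**Figure D3:**
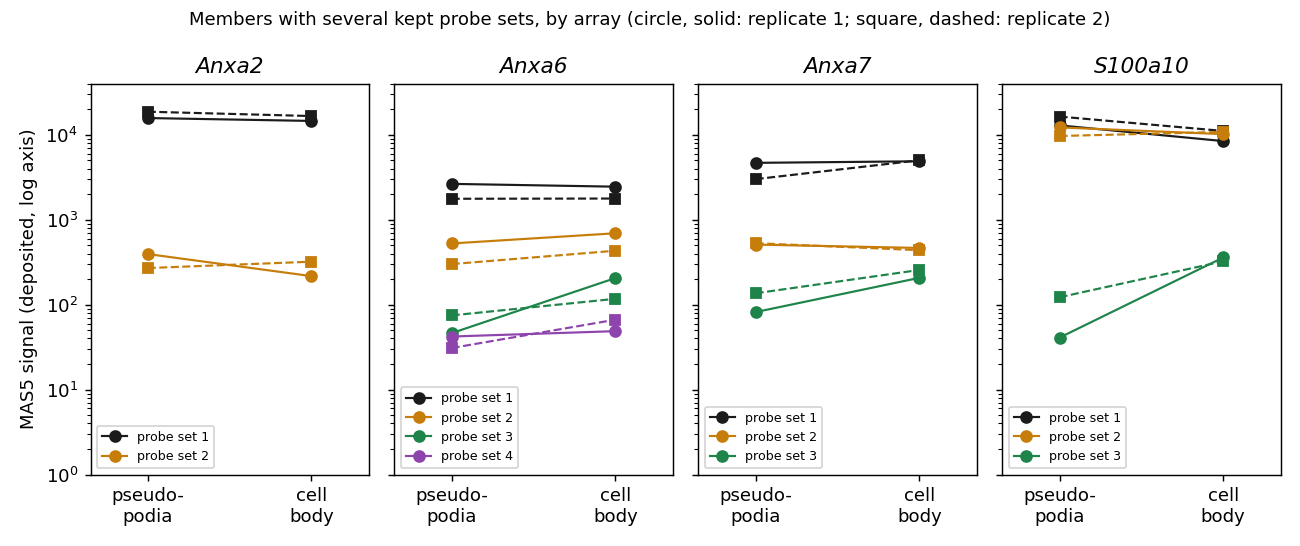
Deposited MAS5 signal (vertical log axis) of every kept probe set of the 4 members that have several, pseudopodia left and cell bodies right, with solid lines and circles for replicate 1, dashed lines and squares for replicate 2, and colours for probe sets numbered from the brightest. The dim probe set 3 of S100a10, Anxa6 and Anxa7 is lower on both pseudopodia arrays than on both cell body arrays, while the brightest probe set of S100a10 is higher and that of Anxa6 overlaps.

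Among the 4 members with several kept probe sets, these lay farthest apart in S100a10. Its dimmest probe set stood 2.60 below its brightest on the log2 scale. Of the 5035 genes with at least 2 kept probe sets, 16 reached this gap, S100a10 itself included. In Anxa6 and Anxa7 the dimmest stood 0.54 and 0.62 below the brightest (differences of -0.54 and -0.62), and in Anxa2 0.15 above it. Across the 5035 genes the dimmest was below the brightest in 59.0%, with a median gap of -0.135. This comparison was chosen after the values were seen and has no test. The position of the probe sets within their transcripts was not analysed here.

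The small positive values of the brightest members stood beside a shift of bright probe sets in general. The 491 kept probe sets with a mean log2 level of at least 14 had a median difference of 0.35, and 92.3% of them were positive. After quantile normalization their median was 0.01. The members among them were Anxa1, Anxa2, S100a4, S100a6 and the 2 brighter probe sets of S100a10, and only the brightest probe set of S100a10, at 0.59, exceeded that median. The 3312 probe sets between 11 and 14 had a median of 0.11, and the 18716 below 11 had one of -0.07. These level bands were chosen after the values were seen.

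**Figure D4:**
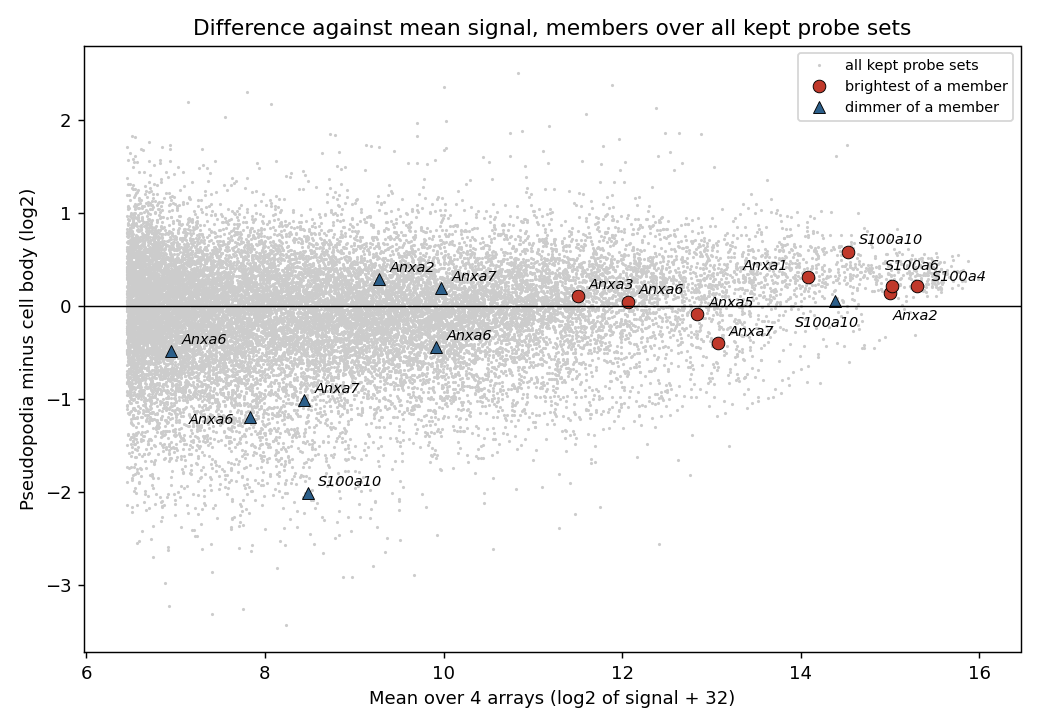
Difference between pseudopodia and cell bodies (vertical axis, log2) against the mean over 4 arrays (horizontal axis, log2 of signal + 32) for all 22519 kept probe sets in grey, with the brightest probe set of each member as red circles and its dimmer ones as blue triangles. At the right end the grey cloud lies mostly above 0, and the members there lie within it, while the dim probe sets of S100a10, Anxa6 and Anxa7 lie low on the left.

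Of 25 further annexin and S100-related genes, 21 had a probe set with 1 symbol, 9 were kept, and none passed in either direction, beside the 3.81% of all genes. By limma's unadjusted p, 1 of the 9 was under 0.05, beside 21.0% of all genes. S100a16, a broadly expressed S100 protein, had 3941.7 and 3841.9 in pseudopodia, against 2774.2 and 2771.6 in cell bodies. The fractions were well apart, by 0.49 ± 0.16 (adjusted p = 0.131), and by 0.58 ± 0.18 (adjusted p = 0.107) on its second probe set. Under the scan-day block both probe sets passed as higher (adjusted p = 0.0275 and 0.0154). S100a13, which takes part in the release of growth factors that lack a signal peptide, differed by 0.41 ± 0.18 (adjusted p = 0.244), and S100a3 and S100a5, dimmer genes, by 0.47 ± 0.30 and 0.38 ± 0.37 (adjusted p = 0.40 and 0.608). The 6 S100-related genes kept, which include S100a1 and S100pbp, a gene for an S100-binding protein, had a median of 0.39, with 0.54 and 0.18 in the replicate pairs. The median of all genes was 0.01. The 0.39 was taken with the trimmed-mean scaling only and includes S100a3 and S100a5, whose signals were at most 111.1.

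Among the other annexins, Anxa4, which is abundant in secretory epithelia, had 3 probe sets. The brightest stood at 0.21 ± 0.16 (adjusted p = 0.508) and the next, 1424176_a_at, at -0.68 ± 0.35 (adjusted p = 0.309). On 1424176_a_at the pseudopodia signals were 1606.7 and 708.2 and the cell body signals 1762.5 and 1670.7. Under the scan-day block it passed as lower (adjusted p = 0.0342). Anxa8 had 3111.5 and 4187.6 in pseudopodia and 2706.4 and 4536.7 in cell bodies, with replicate 2 higher in both fractions, and differed by 0.04 ± 0.27 (adjusted p = 0.95). Anxa9 differed by -0.27 ± 0.34 (adjusted p = 0.689). The 12 relatives with no kept probe set had signals of at most 39.4.

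Genes that work with these proteins were read from 4 lists, of which 53 of 71 genes were kept. By their brightest probe set 4 of the 53 were lower in pseudopodia and none was higher, where 2.52% of all genes were lower, and the median of the 53 was 0.01. At an unadjusted limma p under 0.05 there were 15 of 53, of which 6 had positive values, beside 21.0% of all genes. Under the scan-day block 14 of 53 passed, 10 as lower and 4 as higher, beside 17.4% of all genes. The 4 calls, of Lrp1, Esyt1, Rcn3 and Calu, all ended without the variance trend (adjusted p between 0.0705 and 0.148) and without cell body replicate 1 (0.247 to 0.399) or 2 (0.224 to 0.275). That of Lrp1 also ended without the filter (0.0572), and that of Calu without the filter (0.106), with median centring (0.0585) and with a pseudocount of 16 (0.0528). In plasminogen activation 1 of 4 passed: Lrp1, an endocytic receptor that clears protease and inhibitor complexes, had 1750.1 and 1824.0 in pseudopodia and 3876.6 and 3522.7 in cell bodies (-1.04 ± 0.17, adjusted p = 0.0273). Plat, tissue plasminogen activator, stood at -0.76 ± 0.28 (adjusted p = 0.173), Plaur, the urokinase receptor, at -0.46 ± 0.32 and Plgrkt, a plasminogen receptor, at 0.67 ± 0.20 (adjusted p = 0.0995). With the block Plat passed as lower (adjusted p = 0.0373) and Plgrkt as higher (adjusted p = 0.0163).

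Of 18 genes of membrane repair and calpains none passed, 2 had an unadjusted limma p under 0.05 (21.0% of all genes), and their median was 0.06. Chmp4b, of the ESCRT-III machinery that seals membranes, stood at 0.56 ± 0.21 and 0.63 ± 0.19 on its probe sets (adjusted p = 0.176 and 0.101), and both passed as higher with the block (adjusted p = 0.00626 and 0.0144). The ferlins Myof and Dysf stood at -0.66 ± 0.27 and -0.47 ± 0.23 (adjusted p = 0.204 and 0.279), and Ahnak2, a relative of a scaffold that binds the annexin A2 complex, at -0.63 ± 0.32 (adjusted p = 0.299). With the block Myof and Ahnak2 passed as lower (adjusted p = 0.0285 and 0.0108).

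Of 15 binding partners none passed by the brightest probe set, 4 had an unadjusted limma p under 0.05, near the 21.0% of all genes, and the median was 0.08. The highest was Rdx, radixin, which links actin to the membrane, at 0.93 ± 0.25 (adjusted p = 0.0784, and 0.00232 with the block), while its dimmer probe sets stood at 0.14 and -0.29. Cacybp, calcyclin-binding protein, and Sugt1, another ligand of S100A6, stood at 0.58 ± 0.22 and 0.59 ± 0.19 (adjusted p = 0.175 and 0.128), and Sugt1 passed with the block (adjusted p = 0.0254). Rasa1, the Ras GTPase-activating protein that binds annexin A6, stood at 0.57 ± 0.24 (adjusted p = 0.225) on its brightest probe set. Its dimmer probe set was higher in pseudopodia, with 142.5 and 144.2 against 47.4 and 48.1 (1.32 ± 0.27, adjusted p = 0.0419). A dim probe set of Sri, the annexin A7 ligand sorcin, named because it passed, was lower, with 34.5 and 29.2 in pseudopodia against 278.1 and 187.3 in cell bodies (-2.36 ± 0.30, adjusted p = 0.0184). The brightest probe set of Sri stood at -0.0016 ± 0.15. Over all 96 kept probe sets of the 4 lists, 6 passed as lower and 1 as higher, beside 3.32% and 1.08% of all kept. The 6 include a dim probe set of Calu, 1441477_at, at -2.56 ± 0.28 (adjusted p = 0.0149). These calls on dim probe sets of Rasa1, Sri and Calu ended without the variance trend, where 0 of all kept probe sets passed.

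Among 16 other proteins that bind calcium or calcium-dependent phospholipid, 3 were lower in pseudopodia and none was higher, beside 2.52% and 1.30% of all genes. At an unadjusted limma p under 0.05 there were 6, all with negative values, beside 21.0% of all genes, and the median was -0.28. Esyt1, a tether between endoplasmic reticulum and plasma membrane with C2 domains, stood at -1.37 ± 0.20 (adjusted p = 0.0238). Rcn3 and Calu, EF-hand proteins of the secretory pathway, stood at -1.35 ± 0.18 and -0.84 ± 0.18 (adjusted p = 0.020 and 0.0495). Their relative Rcn2 stood at -0.98 ± 0.30 (adjusted p = 0.110, and 0.00248 with the block). Another relative, Rcn1, overlapped between the fractions on its brightest probe set, at -0.05 ± 0.20 (adjusted p = 0.919). Its dimmer probe set stood at -1.07 ± 0.41 (adjusted p = 0.183). Esyt1, Rcn3, Calu and Rcn2, named for their moderated statistic, had lower values on both pseudopodia arrays than on both cell body arrays. Of the 16 genes, the arrays were fully apart in 6 as lower and 2 as higher. Beside this stand 25.2% of all genes as lower and 27.4% as higher.

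**Figure D5:**
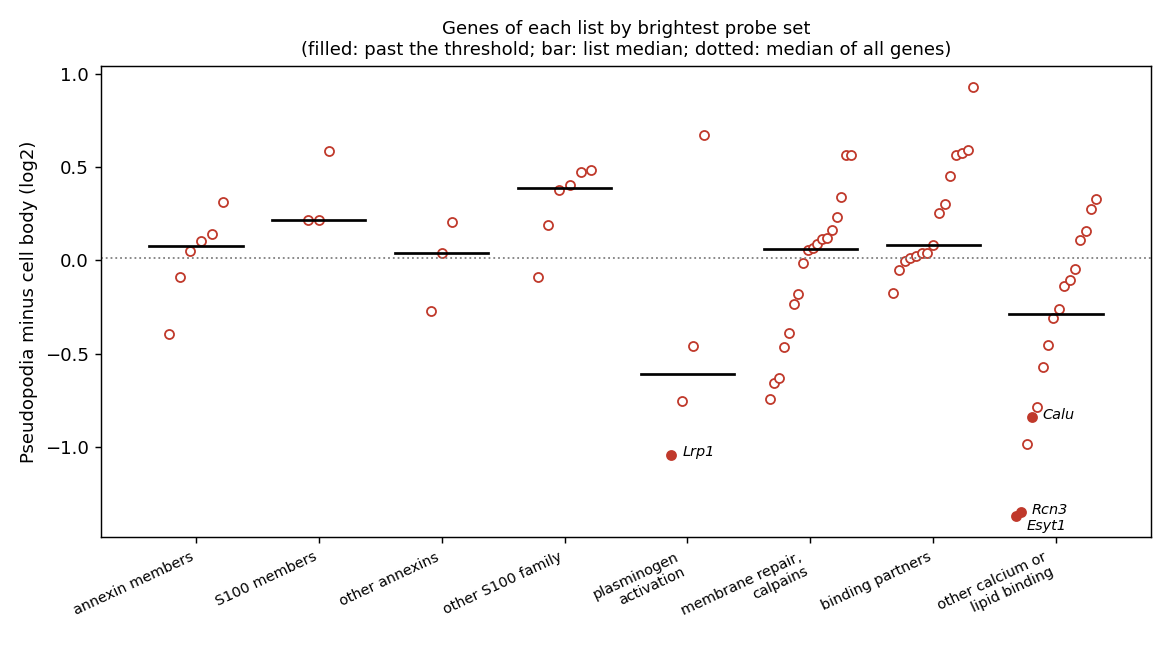
Difference of each kept gene by its brightest probe set (vertical axis, log2, pseudopodia minus cell body), in columns for the annexin and S100 members, their relatives and the 4 partner lists, with filled points past the threshold, bars for list medians and a dotted line for the median of all genes. The filled points are Lrp1, Calu, Rcn3 and Esyt1, all lower in pseudopodia, and no annexin or S100 gene is filled.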

How the data were processed

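RNA of 2 pseudopodia and 2 cell body samples was hybridised to Affymetrix mouse arrays, grouped by sample title. The deposited values are linear intensities, 1 for each probe set on each array, made with MAS5 according to the submitters' processing notes. Its version, detection calls and scaling target are not given in the sources used here. That method corrects each probe by its mismatch partner, so low signals vary more.

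Each array was brought to a 2% trimmed mean of 500 before taking log2(signal + 32). Fold changes are therefore on the log2(value + pseudocount) scale, where those of dim probe sets come out too small. Of 45037 probe sets that are not controls, the 22519 at or above the median of the mean log2 level were kept. The fractions were set against each other by limma 3.58.1 (R 4.3.3), using lmFit and then eBayes with its trend option, two-sided, with Benjamini-Hochberg adjustment over all kept probe sets. With 2 arrays a side the smallest exact permutation p is 0.333, so none was run.

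GEO's platform annotation gave the symbols: 34958 probe sets have 1, 932 have several and 9211 are unnamed here. All 10 member symbols are in the RefSeq gene table, used for names and neighbours only. Named beyond the members are, per list, the genes past the threshold and the next by moderated statistic up to 4. The members and lists were chosen with earlier results of these data known. Replicate numbers pair arrays through a shared scan day, per the file headers. The replicate 2 minus replicate 1 differences of the fractions correlated with r = 0.243 over probe sets, which are not independent. Alternatives were the block, the variance model, 3 scalings, the pseudocount, the filter, the probe set for a gene, and leaving out each array.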

Additional observations from a re-analysis of the deposited data

How the results depend on the processing

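With 2 arrays per fraction, calls rest on the variance model. Of all kept probe sets, 990 passed, against 0 without the variance trend (4487 at an unadjusted limma p under 0.05), 4087 with the replicate block, 1564 on hybridization controls, 176 without the filter, and 0 to 3956 leaving out 1 array. The 0 came without cell body replicate 1 or 2 (2502 and 2959 unadjusted), and without pseudopodia replicate 2 there were 2895. The member count of 1 was 0 without the trend, after quantile normalization and without the filter (3, 3 and 4 unadjusted), 4 with the replicate block, 3 on hybridization controls, and 0 to 4 leaving out 1 array, with 0 again without either cell body array (2 and 3 unadjusted). A left-out array leaves a lone one, assumed to vary like the other fraction. Of the family genes outside the members 0 passed, and 1 with the replicate block, S100a16. Of the partner genes 4 passed, against 0 without the trend (11 unadjusted), 14 with the block, 2 without the filter, 3 with median centring or a pseudocount of 16, 6 (1 higher) with the mean of a gene's probe sets, and 0 to 12 leaving out 1 array, with 0 without either cell body array (5 and 7 unadjusted). The median of member genes, 0.14, was -0.12 after quantile normalization, -0.19 on hybridization controls (-0.19 and 0.096 relative to all genes), and 0.16 to 0.23 leaving out 1 array.

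Several member values turned sign, none of them past the threshold. After quantile normalization these were Anxa1 (-0.0014), Anxa2 (-0.20), Anxa6 (-0.012), S100a4 (-0.14), S100a6 (-0.12) and 1416762_at of S100a10 (-0.26). On hybridization controls, which moved the median of all genes to -0.29, so that values below 0 there show no change of direction relative to other genes, they were Anxa1 (-0.018), Anxa2 (-0.19 and -0.023 on 2 probe sets), Anxa3 (-0.22), Anxa6 (-0.28), S100a4 (-0.12), S100a6 (-0.12) and, on second probe sets, Anxa7 (-0.13) and S100a10 (-0.28). Leaving out 1 array gave -0.022 to 0.23 for Anxa3, -0.42 to 0.25 for Anxa5, -0.24 to 0.34 for Anxa6 and -0.12 to 0.22 for 1416762_at of S100a10. Anxa5 was positive without pseudopodia replicate 2 and, at 0.014, without cell body replicate 1, and Anxa6 was also negative, at -0.18, without cell body replicate 2. Pseudocounts of 16 and 64, median centring and the 25th percentile filter left the member count at 1. The causes were not tested.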
